A study of Mus musculus with 4 samples.

Results

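The genes described here belong to the machinery of programmed cell death: the Bcl2 family, the caspases, the inhibitors of apoptosis (IAPs), the apoptosome and the death receptors. They were chosen by name, as 33 genes whose symbol stood as the gene name of at least 1 non-control probe in the scanner files. All 33 were found, on 54 probes, and 31 of them passed the filter on dim probes and were tested among 17555 genes. A gene was represented by its brightest probe. By known role, 8 members are counted as acting against cell death and 20 as acting for it. The other 5 are kept apart because their main role lies elsewhere or is not settled. Bcl2l10, described in the mouse in both roles, is counted among the 8.

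The cKO group was dorsal skin of male Fgf18 cKO mice, in which Fgf18 was deleted in keratin 5-positive epithelial cells, and the WT group was dorsal skin of male C57BL/6 mice. Both groups were 42 days old, carried the strain label C57BL/6 and were labelled as telogen, when follicles rest. Skin was taken at full thickness, so each RNA held epidermis, hair follicles, dermis, fat and muscle. The question of the study was which genes are targets of Fgf18 in telogen. PolyA RNA from 3 mice made up 1 pool per genotype, and each pool was measured on duplicate one-colour arrays. The sources used here do not say whether the WT mice carried a floxed allele or Cre. All standard deviations, intervals and p-values below cover the spread between duplicate arrays of 1 pool, or where stated between spots of 1 array. None covers the spread between mice. The intervals and p-values compare 2 pools, not the genotypes.

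Bcl2 proteins decide whether the outer mitochondrial membrane is breached. The pore formers Bax and Bak1 open it, Bcl2-type inhibitors hold them in check, and BH3-only proteins relieve that check or act on the pore formers themselves. Cytochrome c then leaves the mitochondria and assembles with Apaf1 and Casp9 into the apoptosome, which activates further caspases unless IAPs block them. Death receptors such as Fas reach the caspases through Casp8. In skin, hair follicles regress by apoptosis in catagen, and keratinocytes of the epidermis end in cornification, a separate form of death.

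Signals are given below relative to the 75th percentile of their array, a raw signal of 1403 and 1453 for cKO skin and of 1271 and 1316 for WT skin. Because the cKO arrays were brighter as a whole, the scaled signal and not the raw one was compared. Between 62.1% and 69.1% of spots were well above background. Fgf18 itself had scaled signals of 3.63 and 3.64 in cKO skin, against 4.52 and 4.62 in WT skin, 1.26-fold lower and not called. The deleted part of Fgf18 is not stated, so the probe is no check of the genotype labels. The epidermal keratins Krt1 and Krt10 were well above background on every array. All 7 measured hair shaft keratins, which mark growing follicles, rose in the cKO pool by the rule below, against 5.67% of all genes tested. Their summed scaled signals were 115 and 116 in cKO skin and 0.403 and 0.453 in WT skin. In WT skin Krt34, Krt85 and Krt86 were not well above background. These keratins go against the telogen label in the cKO pool. In a bulk sample, fewer cells of a type and less RNA per cell cannot be told apart, here and below.

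Most cell death genes, like most genes tested, differed by less than 1.5-fold between the pools. That held for 29 of the 31 tested members and for 87.8% of all genes tested. A gene was called where the limma adjusted p was under 0.05 and the change was at least 1.5-fold, which is 0.58 on the log2 scale. By this rule 0 of 31 members rose, against a background of 5.67% of all genes tested, and 2 fell, Bcl2l10 and Bik, against a background of 4.82%. Without the second WT array 1 member fell, Bik. Bcl2l10 was tested only because it was bright enough in WT skin. At an unadjusted limma p under 0.05 and any size, 11 members were higher, against 25.2% of all genes, and 12 were lower, against 37.4% of all genes. At an adjusted p under 0.05 and any size, 10 members (32.3%) were higher, against 22.2% of all genes, and 9 (29.0%) were lower, against 33.6% of all genes. For 27 of the 31 members the 95% interval of the change lay wholly inside 1.5-fold in either direction, as it did for 76.6% of all genes. The exceptions were Bcl2l10, Bik, Cycs and Casp4, all lower in cKO skin.

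Fitted changes ran from -0.67 to 0.33 in the pro-death members and, apart from Bcl2l10, from -0.07 to 0.21 in the anti-death members. The median log2 change was 0.03 over 18 tested pro-death members and 0.09 over 8 anti-death members, against -0.05 over all genes tested. Without the second WT array the pro-death median was -0.0024, and with the inflammatory caspases counted in it was -0.0029. In 14 members both cKO arrays lay above both WT arrays, as in 33.8% of all genes, and in 12 both lay below, as in 48.1% of all genes. In the remaining 5 members the groups overlapped.

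**Figure D1:**
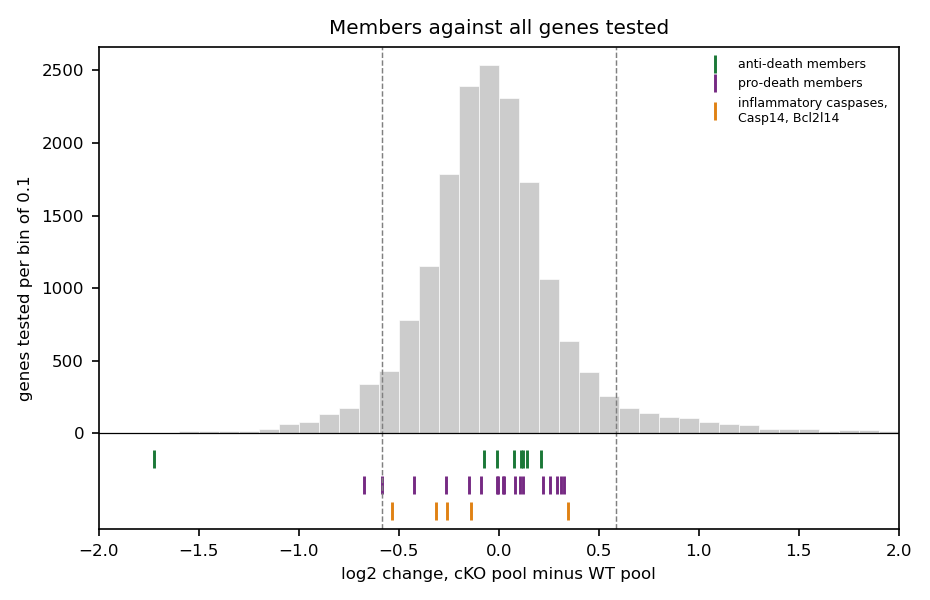
The grey bars count all genes tested by their log2 change, cKO pool minus WT pool, in bins of 0.1, and the coloured ticks below them place each tested member by role. Dashed lines mark 1.5-fold. Of the 31 members 29 lie inside the dashed lines, as do 87.8% of all genes, and Bik and Bcl2l10 lie to their left. Bcl2l10 is drawn at its fitted value of -1.72, although its cKO arrays were not well above background, so that the size of its fall is uncertain. The axis leaves out 34 genes below -2 and 220 above 2, none of them members.

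**Figure D2:**
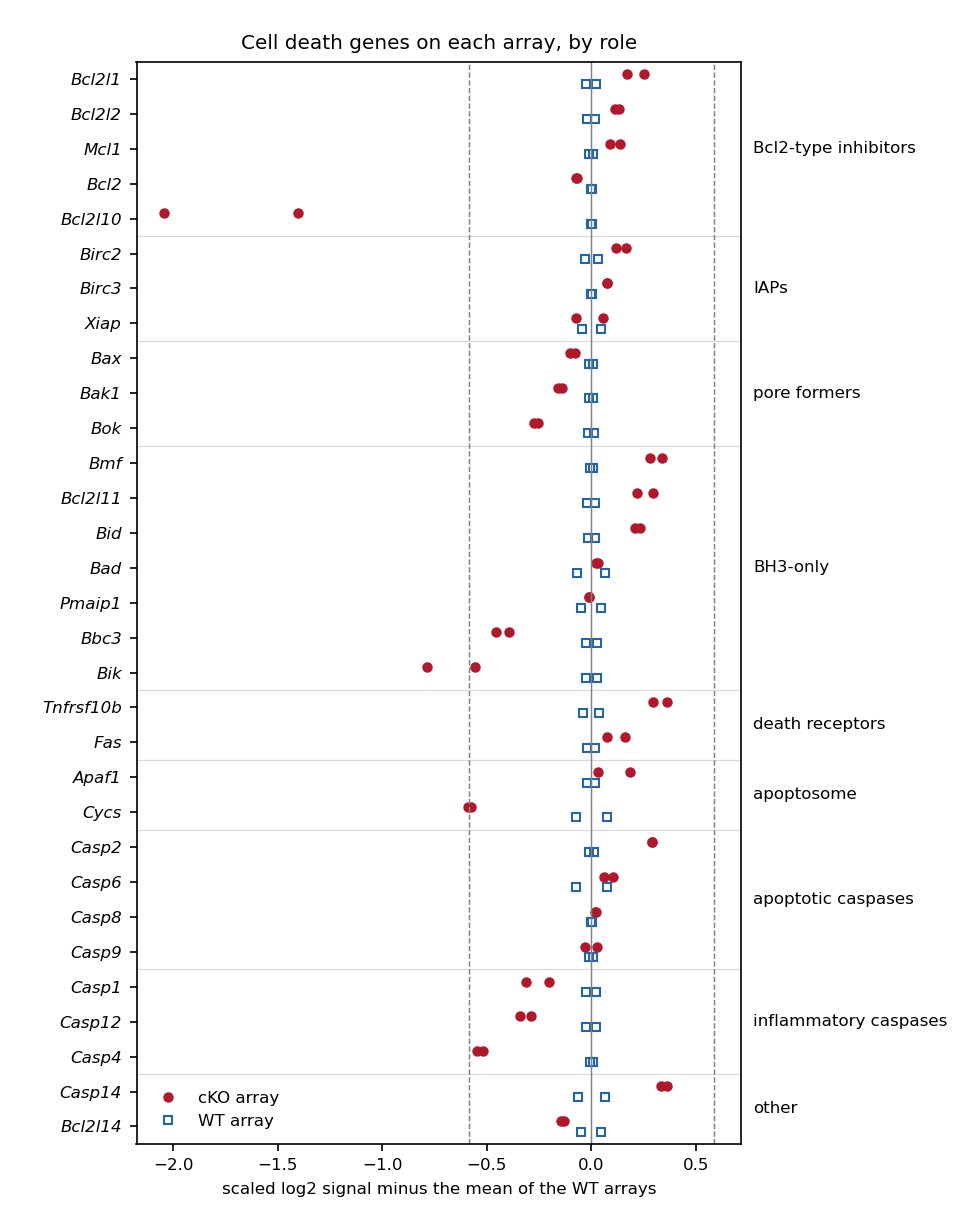
Each row shows a tested member, with filled circles for the cKO arrays and open squares for the WT arrays. The x axis is the scaled log2 signal minus the mean of the WT arrays, so that WT lies around 0, and dashed lines mark 1.5-fold. The 3 pore formers and the 3 inflammatory caspases lie left of WT on both cKO arrays, while Bmf, Bcl2l11, Bid, Casp2 and Casp14 lie right of it.

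Among the Bcl2-type inhibitors, Bcl2l10 fell, and it was the member with the largest change. It encodes a Bcl2 relative that has been described in the mouse both as an inhibitor and as a promoter of cell death. The cKO arrays read 32.8 and 21.8 (raw signal), neither well above background, against 78.8 and 81.3 on the WT arrays, both well above background. On the scaled log2 level this was -5.74 ± 0.454 in cKO skin and -4.01 ± 0.00393 in WT skin (SD, n = 2 arrays of 1 pool each). The groups did not overlap, and the WT arrays were nearly identical while the cKO arrays were not. The fitted log2 change was -1.72, or 3.30-fold lower in the cKO pool (limma adjusted p = 0.012). Each cKO array was also given the higher of its own signal and the lowest signal well above background on that array. The fall was then 3.27-fold. Both sizes rest on cKO signals that were not well above background, so neither is a firm lower bound for Bcl2l10. Its call was lost without the first WT array (adjusted p = 0.051), without the second (0.051) and when dim probes were kept in the test (0.052). With normexp and quantile normalization the log2 change was -0.70.

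The Bcl2l10 value rests on 1 probe, and so does that of Bik, a BH3-only gene described below. The first 30 of the 60 bases of each probe are shown as the scanner files list them, since these are the sequences on which the 2 calls depend. The Bcl2l10 probe lies on the plus strand of chromosome 9 from 75199356 to 75199415 on mm9, and the Bik probe on the plus strand of chromosome 15 from 83374048 to 83374107.
Bcl2l10: gttctaaggacttctgaatttataatactc
Bik: ttttcaggagcttgattcgaagcctcacca
Exons and untranslated regions were not assigned to probes, as no mm9 annotation was at hand.

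The better known inhibitors were close to WT. Bcl2l1, which encodes Bcl-xL and is needed in many epithelia, had scaled signals of 1.46 and 1.54 in cKO skin, against 1.28 and 1.32 in WT skin. Both cKO arrays lay above both WT arrays, with a log2 change of 0.21 (limma adjusted p = 0.025). Its other kept probes, both dimmer, had changes of 0.07 and -0.15. In a limma fit over single probes their adjusted p was 0.60 and 0.11, so neither change has a clear direction. Mcl1, a short-lived inhibitor, had 35.5 and 34.3 in cKO skin, against 32.0 and 32.5 in WT skin (log2 change 0.11). Its change was 0.29 with quantile normalization, and its other kept probe gave 0.02. Bcl2l2 had 2.18 and 2.15 in cKO skin, against 2.01 and 1.96 in WT skin (0.12). Bcl2, the founding member, had 0.936 and 0.937 in cKO skin, against 0.983 and 0.985 in WT skin. That is a log2 change of -0.07 (limma adjusted p = 0.067), and the other kept probes gave 0.09 and -0.30. The probe at -0.30 was dim, with raw signals of 42.6 and 57.5 in cKO skin and 47.9 and 63.2 in WT skin.

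The 3 IAP genes, whose products bind caspases or act in signalling from tumour necrosis factor receptors, were not called. Birc2 had scaled signals of 1.76 and 1.82 in cKO skin, against 1.58 and 1.66 in WT skin, a log2 change of 0.14. Its chromosomal neighbour Birc3 had 2.05 and 2.05 in cKO skin, against 1.95 and 1.94 in WT skin, a change of 0.08. In both genes the cKO arrays lay above the WT arrays, by less than 1.5-fold. Xiap, the IAP that binds caspases most directly, overlapped between the groups (log2 change -0.01), and its other probes gave 0.12 and -0.16.

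All 3 pore-forming members were lower in cKO skin by small amounts. Bok, an effector-like member found at other membranes as well, had scaled signals of 12.6 and 12.4 in cKO skin, against 15.1 and 14.8 in WT skin. Its log2 change was -0.27, with a 95% interval from -0.34 to -0.19. With other ways of processing the change ran from -0.28 to -0.12, so it left that interval. Bak1 had 1.26 and 1.24 in cKO skin, against 1.40 and 1.38 in WT skin (log2 change -0.15), and its second probe gave -0.09. Bax had 1.32 and 1.34 in cKO skin, against 1.43 and 1.41 in WT skin (-0.09, limma adjusted p = 0.054). In all 3 genes both cKO arrays lay below both WT arrays, as in 48.1% of all genes, and none reached 1.5-fold.

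BH3-only genes, which sense stress and start the mitochondrial route, went in both directions. Bik, which encodes a protein of the endoplasmic reticulum, fell 1.59-fold. Its scaled signals were 0.153 and 0.179 in cKO skin, against 0.259 and 0.269 in WT skin, and no cKO array reached the level of a WT array. The log2 change was -0.67 (SE 0.093, limma adjusted p = 0.011), with a 95% interval from -0.95 to -0.40. It missed the fold threshold without the first cKO array (-0.56) and with normexp and quantile normalization (-0.51).

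Bbc3, which encodes Puma, a target of p53, had scaled signals of 1.66 and 1.59 in cKO skin, against 2.23 and 2.15 in WT skin. It was 1.34-fold lower (log2 change -0.42, limma adjusted p = 0.0045), with an interval from -0.54 to -0.31, and was not called. In the opposite direction, Bmf, whose product is tied to the cytoskeleton and to loss of attachment, had 1.28 and 1.23 in cKO skin, against 1.01 and 1.02 in WT skin (log2 change 0.31). A second kept probe of Bmf gave 0.02. Bcl2l11, which encodes Bim, had 1.64 and 1.72 in cKO skin, against 1.39 and 1.43 in WT skin (0.26), and its second probe, not well above background in WT skin, gave 0.35. Bid, which links death receptors to mitochondria, had 1.07 and 1.05 in cKO skin, against 0.894 and 0.917 in WT skin (0.22). For these 4 genes the groups were separated by more than the gap between duplicates, as in 23 of the 31 tested members. The changes stayed under 1.5-fold. Of all genes, 33.8% had both cKO arrays above both WT arrays and 48.1% had both below.

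The remaining BH3-only genes gave little. Bad and Pmaip1, which encodes Noxa, overlapped between the groups, with log2 changes of 0.03 and -0.01. The brightest Bad probe lies on the minus strand of chromosome 19. The other kept Bad probe, listed under a RefSeq transcript, lies on the plus strand and gave -0.0048. These probes read opposite strands, so the value given for Bad may not be that of its mRNA. Hrk, a BH3-only gene known from neurons, was not well above background on any array and was not tested.

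**Figure D3:**
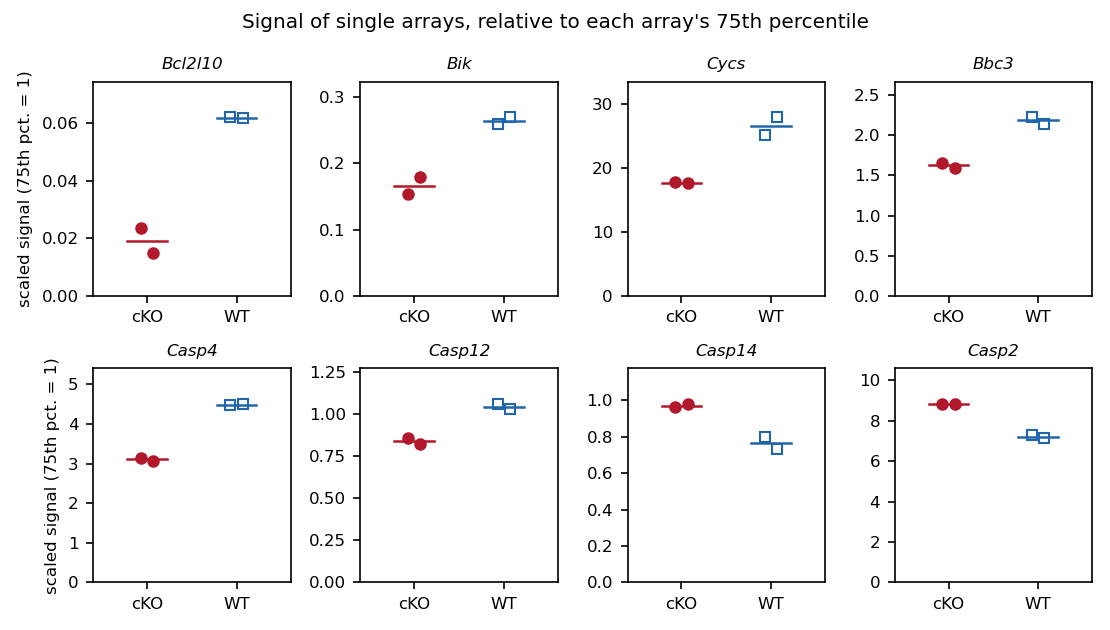
Scaled signals of 8 members on single arrays (75th percentile of an array = 1, linear axis from 0), with cKO arrays left and WT arrays right in each panel and bars at the mean of the 2 arrays. In Bcl2l10, Bik, Cycs, Bbc3, Casp4 and Casp12 both cKO points lie below the WT points, and in Casp14 and Casp2 above them.

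Of the death receptors, Fas was close to WT and Tnfrsf10b differed by probe. Fas had scaled signals of 1.60 and 1.70 in cKO skin, against 1.54 and 1.499 in WT skin, and a log2 change of 0.12 (limma adjusted p = 0.088). Its ligand gene Fasl, known from cytotoxic lymphocytes, was not tested. Of its 10 replicate spots, 0 and 4 were well above background on the cKO arrays and 0 on each WT array. Tnfrsf10b, the mouse receptor for the ligand Trail, was dim but measured. Its brightest probe had 0.0450 and 0.0470 in cKO skin, against 0.0357 and 0.0377 in WT skin, a log2 change of 0.33 (limma adjusted p = 0.011). Another probe gave 0.81 and was called higher in a fit over 26070 single probes (adjusted p = 0.0030), in which 4.92% were called higher. In WT skin that probe cleared the background on a single array, and the remaining probe gave 0.13.

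Cycs, which encodes somatic cytochrome c, was lower in cKO skin at the edge of the threshold. The brightest probe had scaled signals of 17.8 and 17.7 in cKO skin, against 25.2 and 28.0 in WT skin, which is 1.496-fold lower. The cKO arrays lay close together and the WT arrays were further apart. The log2 change of -0.58 just missed the threshold (limma adjusted p = 0.0064), and its interval ran from -0.77 to -0.40. The other 2 probes had scaled signals of 4.28 and 4.47, and of 6.82 and 6.71, in cKO skin, against 6.96 and 6.99, and 10.9 and 10.6, in WT skin. Both had changes of -0.67 and were called lower in the fit over single probes, in which 4.8% were called lower. With the mean of the 3 probes Cycs was called (-0.64), as it was without the first cKO array (-0.59) and without the first WT array (-0.66). Cytochrome c has many processed pseudogenes, so single probes may report more than 1 locus.

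The 2 called Cycs probes are not independent measurements, because they share 40 bases. All 3 probes lie on the minus strand of chromosome 6, the brightest from 50515255 to 50515314 on mm9 and the overlapping pair from 50514542 to 50514601 and from 50514522 to 50514581. The stretches of 30 bases below show the brightest probe and the overlap, with 20 of the shared bases in capitals.
Cycs brightest probe: aatgatcttcgctggaattaagaagaaggg
Cycs upstream probe of the pair: tgtaaatcagAATTGTCCTTAAATACCCAC
Cycs downstream probe of the pair: AATTGTCCTTAAATACCCACtcagaaacac

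The other parts of the apoptosome and the apoptotic caspases were near WT, apart from Casp2. Apaf1, the scaffold, had scaled signals of 0.353 and 0.317 in cKO skin, against 0.314 and 0.306 in WT skin (log2 change 0.11, limma adjusted p = 0.23). Casp9, its initiator caspase, overlapped between the groups (-0.0029, 95% interval from -0.10 to 0.09). Casp8, the initiator below death receptors, had 1.70 and 1.70 in cKO skin, against 1.67 and 1.67 in WT skin, with an interval from -0.04 to 0.09. Casp6, an executioner, overlapped as well (0.08). Casp2, an initiator tied to DNA damage and mitosis, had 8.85 and 8.83 in cKO skin, against 7.28 and 7.17 in WT skin. It was 1.22-fold higher (log2 change 0.29, limma adjusted p = 0.0039) and was not called. Its duplicate arrays differed by far less than the pools did.

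The 3 caspases grouped as inflammatory, Casp1, Casp4 and Casp12, are kept apart from the apoptotic ones and were all lower in cKO skin. Casp1 and Casp4 process cytokines or start pyroptosis. Casp4, the sensor of cytosolic lipopolysaccharide that was long called Casp11 in the mouse, had scaled signals of 3.13 and 3.08 in cKO skin, against 4.47 and 4.51 in WT skin. Its log2 change was -0.53 (limma adjusted p = 0.0018), or 1.45-fold lower, with an interval from -0.61 to -0.46 that reaches the threshold. Casp12 had 0.854 and 0.822 in cKO skin, against 1.06 and 1.03 in WT skin, a log2 change of -0.31. Casp1, the caspase of the inflammasome, had 2.81 and 3.04 in cKO skin, against 3.43 and 3.55 in WT skin, a change of -0.26. None of these genes was called, and in each the cKO arrays lay below the WT arrays, as in 48.1% of all genes. The Casp4 change had the smallest adjusted p of all members, and the first 30 of the 60 bases of its probe, on the plus strand of chromosome 9 from 5336645 to 5336704, are shown for that reason.
Casp4: tatgaattcaagaccagcctaagcaacaca
The probes of the 3 genes lie within 66092 bases of each other on chromosome 9, from 5306226 to 5372317 on mm9.

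Markers of macrophages and dendritic cells, which express these caspases, stood as follows. Of 10 markers 1 fell, the immunoglobulin receptor Fcgr1, and none rose, against 4.82% and 5.67% of all genes tested. In 8 of the 10 the cKO arrays lay below the WT arrays, against 48.1% of all genes. In 2, Cd207 (log2 change 0.39) and Cd74 (0.16), they lay above them, against 33.8% of all genes. The summed scaled signal of the 10 markers was 181 and 175 in cKO skin, against 185 and 187 in WT skin. Lyz2 alone had 115 and 112 in cKO skin, against 122 and 124 in WT skin, so the sum says little about the other markers. The part of these cells in the values of Casp1, Casp4 and Casp12 was not tested.

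Casp14 and Bcl2l14 complete the members. Casp14, the caspase of cornification that takes part in the breakdown of filaggrin, had scaled signals of 0.961 and 0.981 in cKO skin, against 0.799 and 0.730 in WT skin. It was 1.27-fold higher (log2 change 0.35, interval from 0.18 to 0.51, limma adjusted p = 0.016) and not called, the largest positive change among the brightest probes of the members. The summed signal of 12 markers of differentiated epidermis was lower in the same arrays, at 670 and 656 in cKO skin against 785 and 845 in WT skin. Of these 1 rose, Krt2, and none fell, against 5.67% and 4.82% of all genes tested. Krt2 was dim, with scaled signals of 0.0933 and 0.0957 in cKO skin, against 0.0571 and 0.0654 in WT skin. In 9 of the 12 the cKO arrays lay below the WT arrays, against 48.1% of all genes. In 3 they lay above them, as in Casp14, against 33.8% of all genes. Those 3 were Krt2, the filaggrin gene Flg (log2 change 0.16) and Tgm1 (0.29), a transglutaminase of the cornified envelope. Bcl2l14, a Bcl2 relative of unsettled role, had a log2 change of -0.14 and a second probe at 0.01.

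**Figure D4:**
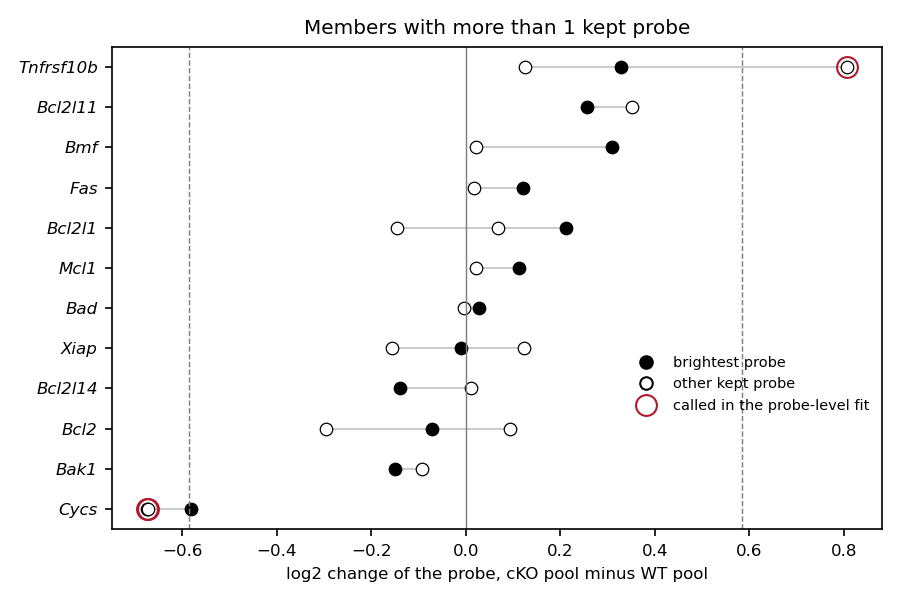
Log2 change of every kept probe for the 12 members with more than 1 kept probe, cKO pool minus WT pool. Black points are the brightest probes that represent the genes, white points the others, and red rings mark probes called in the fit over single probes. Cycs probes lie together near -0.6, Tnfrsf10b probes spread from 0.13 to 0.81, and 5 members have probes on both sides of 0.

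Replicate spots show the spread of a signal within an array, and not that between arrays or pools. Most tested members had a brightest probe with 1 spot per array. The probes of Bcl2, Bcl2l1, Bax and Fas were each printed in 10 spots, whose log2 signals had standard deviations between 0.0281 (Bcl2l1) and 0.0580 (also Bcl2l1) on single arrays. The Fasl spots, near background, had standard deviations between 0.280 and 0.655. The changes of single probes differed in sign in 5 of the 12 members with more than 1 kept probe. These were Bad, Bcl2, Bcl2l1, Bcl2l14 and Xiap. The Bad probes lie on opposite strands. The longest exact stretch that a member's brightest probe shared with a probe of another gene on the array was 12 to 15 bases, on either strand. Sequences not on the array were not compared.

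Other genes of the death pathways were taken from a list of 44, of which 43 were tested. Of these 1 rose, against 5.67% of all genes tested, 3 fell, against 4.82%, and 39 were not called. The median log2 change was -0.12 against -0.05 over all genes. Birc5, which encodes survivin, an IAP relative that also acts in mitosis, had scaled signals of 6.00 and 6.06 in cKO skin, against 3.19 and 3.20 in WT skin, and rose 1.89-fold (limma adjusted p = 0.00083). All 8 markers of proliferating cells also rose, against 5.67% of all genes tested. Their summed signals were 20.6 and 19.5 in cKO skin and 8.87 and 9.45 in WT skin. The part of proliferating cells in the Birc5 value was not tested. Bcl2l15, a Bcl2 relative known from the gut, had 0.296 and 0.291 in cKO skin, against 0.542 and 0.532 in WT skin, and fell 1.83-fold (adjusted p = 0.0010). Tnfsf10, the gene of Trail, had 0.0660 and 0.0704 in cKO skin, against 0.113 and 0.116 in WT skin, and fell 1.68-fold (adjusted p = 0.0024). Its call was lost with normexp and quantile normalization (log2 change -0.50).

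Endog, which encodes a mitochondrial nuclease, fell 1.58-fold (limma adjusted p = 0.0015), with scaled signals of 2.10 and 2.04 in cKO skin, against 3.29 and 3.27 in WT skin. Vdac1 and Vdac2, which encode channels of the outer mitochondrial membrane, had log2 changes of -0.22 and -0.34. Markers of skeletal muscle, a tissue rich in mitochondria, were lower in the same arrays. All 10 had cKO arrays below WT arrays, against 48.1% of all genes. Of the 10, 4 fell, namely Ckm, Atp2a1, Actn3 and Casq1, against 4.82% of all genes tested. The summed scaled signal of the 10 markers was 1168 and 1167 in cKO skin, against 1563 and 1655 in WT skin. The part of muscle in the values of Cycs and Endog was not tested. Of 8 adipocyte markers 3 fell, Lep, Slc2a4 and Pparg, against 4.82% of all genes tested. The median log2 change of the 8 was -0.34. In 7 of the 8 the cKO arrays lay below the WT arrays, against 48.1% of all genes. The summed signal of the 8 markers was 251 and 251 in cKO skin and 252 and 253 in WT skin. Without Fabp4 it was 113 and 112 in cKO skin and 130.2 and 132 in WT skin. Of 11 measured T and NK cell markers 1 rose, Cd4, and none fell, against 5.67% and 4.82% of all genes tested. Their summed signals were 3.69 and 3.72 in cKO skin and 3.46 and 3.57 in WT skin. Cd4 was well above background on the cKO arrays only, and without it the sums were 3.29 and 3.32 in cKO skin and 3.43 and 3.54 in WT skin.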

How the data were processed

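Per the file headers, Agilent Feature Extraction 10.7.3.1 made the deposited spot intensities, with background subtraction and spatial detrending. These intensities were the starting values. The value columns of the authors hold the same intensities, each array's divided by a constant. These values of the authors are thus a linear ratio, not centred per gene, with medians of 0.101 and 0.0983 for cKO skin and 0.0987 and 0.101 for WT skin. The sources used here name no tool for that scaling. Slide and scan time were the same for all arrays.

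Control spots (leaving 43379 spots for 41174 probes per array) and spots marked as outliers were left out. Log2 intensities were scaled to each array's 75th percentile and spots of a probe averaged. A probe was well above background where over 50% of its spots were, and it was kept if so on both arrays of at least 1 group. The brightest kept probe represented a gene. Member probes were taken by gene name in the files, and other names were updated through RefSeq (GRCm38.p6). The pools were compared in R 4.3.3 by limma 3.58.1 (moderated linear model, two-sided p adjusted by Benjamini-Hochberg over all 17555 genes), which was tested on simulated data. Tables were handled with pandas 2.3.3 in Python 3.11.15 and with data.table (1.17.8), and plots were drawn with matplotlib 3.10.9. The number of arrays limits the precision. The members, their roles and all gene lists were chosen with earlier results of these data known. All 33 members are named, and of the other death genes those called. Any further gene was named after its values were seen. Alternatives were other background corrections, scalings, filters and probe rules, the authors' values, trended and robust moderation, the array number as a replicate block, and fits without each array in turn.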

Additional observations from a re-analysis of the deposited data

How the results depend on the processing

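Under all 15 alternatives no member rose, and 28 of the 31 members were called in none of them. The number that fell was 1 with normexp and quantile normalization, 1 without the filter on dim probes, 1 with only probes well above background on all 4 arrays, which leave Bcl2l10 untested, and between 1 and 2 with arrays left out in turn, but 3 with the mean of probes, which adds Cycs. With normexp and quantile normalization 483 of all genes fell, against 847. The pro-death median was 0.058 when scaled on detected probes, -0.0029 with the inflammatory caspases, and between -0.0024 and 0.067 with arrays left out. The anti-death median was 0.11 with normexp and quantile normalization, 0.11 with quantile normalization, 0.13 when scaled on detected probes, 0.056 with the mean of probes, 0.11 with only probes well above background on all arrays, 0.113 without Bcl2l10, and between 0.083 and 0.097 with arrays left out. No scaling moved the median of all genes by more than 0.04 from -0.05, while without the filter on dim probes it was -0.16 over 28034 genes.

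Signs turned in 4 members, all near 0. Scaled on detected probes, the change was 0.023 in Xiap, 0.024 in Pmaip1 and 0.030 in Casp9. Pmaip1 was 0.012 with normexp and quantile normalization, and Casp9 was 0.0039 with quantile normalization. With arrays left out, the change ran between -0.073 and 0.054 in Xiap, -0.039 and 0.096 in Bad, -0.057 and 0.038 in Pmaip1, and -0.032 and 0.026 in Casp9. The cause of these differences was not tested.

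The array numbers of the labels share no stated source, and the deviations of same-numbered arrays correlated at -0.043 across genes. With the replicate block 986 genes rose and 829 fell, and the members called were 0 higher and 2 lower. Single probes, 2 arrays of 1 pool and a signal near background (Bcl2l10, Tnfrsf10b, Fasl, Hrk) limit what can be said.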
